A study of Mus musculus with 4 samples.

Results

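The core splicing factors described here are 55 protein-coding genes of the 27293 genes in a count table of embryonic mouse forebrain. They were chosen by symbol alone, as all genes named Srsf, Hnrnp, Sf3a, Sf3b or Snrp with a number or letter suffix, plus U2af1, U2af2 and U2af1l4, and without Snrpn. They make up 0.322% of the 17072 protein-coding genes of the table. The set holds 54 symbols, because U2af1l4 stands in the table under 2 gene identifiers. By role they fall into 7 Sm core proteins of the small nuclear ribonucleoproteins (snRNPs), 2 U1 snRNP proteins, 11 U2 snRNP proteins, 4 genes of U2AF and its paralog, 11 SR proteins and 20 heterogeneous nuclear ribonucleoproteins (hnRNPs).

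The study deleted STING, the adaptor of cytosolic DNA sensing encoded by Tmem173, from neural progenitors and compared the transcriptome of the mutant cortex with the wild type. RNA was taken at embryonic day 13 from tissue labelled telencephalic, and named cerebral cortex in the study's methods, of C57BL/6 mice. The 2 WT libraries carry the genotype label WT and the 2 cKO libraries the label STINGf/f;Nestin-Cre. Nestin-Cre recombines floxed alleles in neural progenitors and their progeny, so that cells of other origin, such as blood and vessels, keep the gene. No treatment is labelled in any group. The title of WT 2 carries another abbreviation ("nes") than that of WT 1 ("wt"), and whether a library holds 1 embryo or a pool is not stated. The p-values given below therefore rest on the spread between these libraries, of which an unknown part may be technical. WT 1 and WT 2 do not hold the same embryos, since the 4 Y-linked genes examined had 0 counts in WT 2 but not in WT 1. Whether cKO 1 and cKO 2 do is not stated.

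Splicing removes introns from precursor mRNA in the spliceosome, which is built anew on each intron. The U1 snRNP pairs with the 5′ splice site, the U2AF dimer reads the polypyrimidine tract and the AG at the 3′ splice site, and the U2 snRNP with its SF3A and SF3B complexes takes hold of the branch point. SR proteins bind exonic enhancers and help to define exons, whereas many hnRNPs bind silencers and counteract them. The balance between both classes sets alternative exons, and the developing cortex changes many such exons as progenitors become neurons. Many SR and hnRNP genes also limit their own mRNA through a "poison" exon or a retained intron that leads to nonsense-mediated decay.

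The promoters below belong, among the factors with a promoter entry, to the 3 with the lowest and the 3 with the highest ratio of cKO 2 to cKO 1, the pair of libraries between which the factors differed most. They were picked by this ratio, so their likeness in it follows from the choice, and a link between promoter and ratio was not tested. Each is the 250 bases before the RefSeq start on the gene's strand, from 5′ to 3′, in build GRCm38.p6. For Srsf10, Snrpg and Snrpd2 this start lies 324, 236 and 116 bases downstream of the deposited gene start. The windows of these genes therefore lie wholly or partly within the counted gene. Capitals mark a GC box, a CCAAT box, a TATA box core, an ETS core or a cAMP response element on either strand, adjoining matches running together, with the letters searched given in the next paragraph.
Srsf1, chr11:88047123-88047372, plus strand: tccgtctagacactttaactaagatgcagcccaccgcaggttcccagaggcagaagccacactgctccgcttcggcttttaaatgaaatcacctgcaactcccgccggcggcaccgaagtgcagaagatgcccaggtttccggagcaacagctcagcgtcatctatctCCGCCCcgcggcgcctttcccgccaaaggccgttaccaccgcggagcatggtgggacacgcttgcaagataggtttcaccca
Srsf10, chr4:135855821-135856070, plus strand: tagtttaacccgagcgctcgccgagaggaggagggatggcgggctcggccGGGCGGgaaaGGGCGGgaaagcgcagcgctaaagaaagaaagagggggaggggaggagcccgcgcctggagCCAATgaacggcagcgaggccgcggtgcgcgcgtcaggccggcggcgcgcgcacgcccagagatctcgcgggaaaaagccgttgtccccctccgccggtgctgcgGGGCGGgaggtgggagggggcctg
Srsf2, chr11:116853095-116853344, minus strand: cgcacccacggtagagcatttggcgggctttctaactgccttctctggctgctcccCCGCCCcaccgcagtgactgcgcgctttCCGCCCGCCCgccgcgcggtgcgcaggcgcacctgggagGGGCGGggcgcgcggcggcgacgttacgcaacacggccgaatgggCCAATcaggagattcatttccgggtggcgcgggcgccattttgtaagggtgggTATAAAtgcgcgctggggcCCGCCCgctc
Snrpg, chr6:86371290-86371539, plus strand: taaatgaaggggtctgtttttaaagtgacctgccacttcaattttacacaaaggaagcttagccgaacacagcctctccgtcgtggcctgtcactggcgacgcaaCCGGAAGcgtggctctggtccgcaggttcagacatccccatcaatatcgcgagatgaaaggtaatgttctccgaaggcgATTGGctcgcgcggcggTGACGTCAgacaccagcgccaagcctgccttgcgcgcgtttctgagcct
Snrpd2, chr7:19149588-19149837, plus strand: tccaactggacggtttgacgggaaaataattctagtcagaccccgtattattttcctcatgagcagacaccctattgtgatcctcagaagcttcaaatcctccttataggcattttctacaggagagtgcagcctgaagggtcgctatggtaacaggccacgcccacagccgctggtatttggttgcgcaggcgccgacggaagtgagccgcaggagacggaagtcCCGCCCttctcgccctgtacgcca
Snrpa, chr7:27196272-27196521, minus strand: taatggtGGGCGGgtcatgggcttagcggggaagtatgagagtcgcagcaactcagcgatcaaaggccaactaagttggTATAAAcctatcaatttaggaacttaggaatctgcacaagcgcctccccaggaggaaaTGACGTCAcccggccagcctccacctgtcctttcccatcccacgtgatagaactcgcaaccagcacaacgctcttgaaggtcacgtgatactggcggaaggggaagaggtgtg

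Of the 54 symbols, 47 had a RefSeq promoter entry, and the 7 without one were Hnrnpll, Hnrnpul2, Sf3b4, Sf3b5, Snrpb, Snrpd1 and U2af2. The upstream stretches of the 47 had a median GC content of 60.8% and 19 CpG dinucleotides, against 52% and 6 over 27025 promoters of the same length. The latter cover all genes with an entry, whether expressed here or not. Where a gene has several RefSeq starts, members were given the one nearest the deposited gene start and other genes the most upstream one. The shares below therefore compare windows and gene sets chosen by unlike rules. The GC box (GGGCGG) was found in 33 of 47 (70.2%, against 33.0% of all promoters) and in 10 of 11 SR genes. An ETS core (CCGGAAG) lay in 15 of 47 (31.9%, against 7.07%), of which 9 were among the 18 snRNP and U2AF genes with an entry and 2 among the 18 hnRNP genes. The CCAAT box, searched as these letters, was present in 21 of 47 (44.7%, against 34.5%) and the TATA box core (TATAAA) in 5 of 47 (10.6%, against 13%). The cAMP response element (TGACGTCA) occurred in 2 of 47 (4.26%, against 1.60%), and these were Snrpa and Snrpg, printed above. A motif of the YY1 type (AAGATGGCG) was found in 0 of 47 and in 0.592% of all promoters. These matches describe letters only, and a GC-rich motif is met more often in a GC-rich window.

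The libraries held 17209654 to 18533391 counts, so that 3 counts correspond to 0.162 to 0.174 CPM, the usual depth-scaled count. Below, 4 values in a row are always in the order WT 1, WT 2, cKO 1 and cKO 2. Tmem173 had 20, 19, 18 and 22 counts, a log2 fold change of 0.02 (SE 0.45) between cKO and WT, so its counts did not fall, and a count per gene does not separate deleted exons from the others. WT and cKO therefore mean below the libraries so labelled. WT 1 stood apart by markers of neighbouring tissue: 10 meninges and mesenchyme markers summed to 309 CPM there and to 46.3 to 84.0 CPM in the others, and the 8 of 10 choroid plexus markers in the table to 52.3 against 6.91 to 9.93 CPM. The 8 markers of ventral telencephalon summed to 666 CPM in cKO 1 and to 965 to 1054 CPM in the others, and the 4 Y-linked genes were at 0 only in WT 2. All 10 cortical progenitor markers were present, with summed levels of 2668 to 2942 CPM, as were 9 cortical neuron markers with 5363 to 6394 CPM. The part of these markers in the differences between splicing factors was not tested. In bulk tissue, fewer cells of a type and less RNA per cell cannot be told apart.

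The splicing factors were abundant. Together they took 1.93%, 1.79%, 1.94% and 1.71% of all counts, and 48 of the 55 had at least 1000 counts in every library. Per kilobase of exon their median level was 49.3 CPM, against 5.02 CPM for the 16145 genes that passed the filter on low counts, and 48 lay among the 25% of those genes with the highest levels. The filter removed 1 member, the U2af1l4 entry ENSMUSG00000078765 with 2, 2, 1 and 2 counts, so that 54 members were tested.

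**Figure D1:**
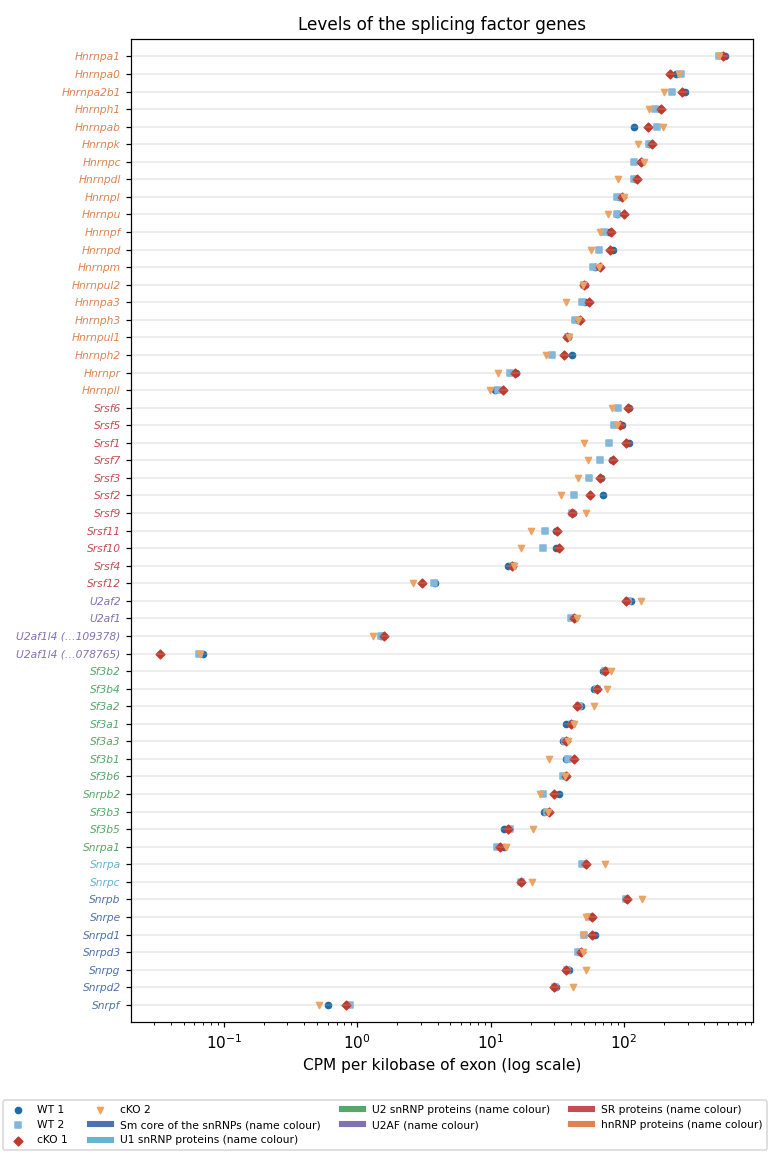
Level of each of the 55 splicing factor genes in CPM per kilobase of exon (log scale), with 1 marker per library and names coloured by role. Hnrnpa1 leads at 537 CPM per kilobase, and Snrpf and the U2af1l4 entries lie far below the rest of their groups.

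Among the hnRNPs, the level per kilobase ran from 537 CPM for Hnrnpa1, the archetypal silencer-binding hnRNP, down to 11.1 CPM for Hnrnpll, which had 2151, 2468, 2629 and 2085 counts and a log2 fold change between cKO and WT of 0.01 (SE 0.16). Hnrnpa1 had 31051, 29924, 31636 and 29372 counts, a spread of 1.12-fold between the lowest and the highest library. A processed pseudogene of it, Gm10052, held 1947, 1936, 1919 and 1953 counts, or 6.27% of the Hnrnpa1 count in WT 1. Reads of the 2 loci may have been shared between them by the alignment, so both counts are uncertain to that extent. Next in level, per kilobase of all exons, came Hnrnpa0 with 247 and Hnrnpa2b1 with 246 CPM, whose libraries overlapped in level. Among SR proteins the level ran from 96.9 CPM per kilobase for Srsf6 to 3.32 CPM for Srsf12. In the U2 snRNP, Sf3b2, an SF3B subunit, was highest at 73.2 CPM per kilobase, with 8090, 9142, 8906 and 9889 counts and a log2 fold change of 0.11 (SE 0.16). Snrpa1, which binds U2 snRNA, was lowest at 12.2 CPM per kilobase, with 690, 656, 679 and 750 counts and a log2 fold change of 0.07 (SE 0.17). U2af2, the large U2AF subunit that binds the polypyrimidine tract, reached 114 CPM per kilobase and U2af1, the small subunit that reads the AG, 42.2 CPM. U2af1l4, a paralog of U2af1, was at 1.48 CPM per kilobase under one identifier (ENSMUSG00000109378) and at 0.0588 CPM under the other. These entries overlap on the same strand: 72.8% of the exonic bases of the first, which GENCODE names Gm49396, are shared with the second or with Igflr1, and 65.6% of those of the second with the first. Reads from shared bases cannot be assigned to 1 of these genes, so both counts are uncertain. For the U1 snRNP, Snrpa was at 55.7 and Snrpc at 17.8 CPM per kilobase. The order depended on the length used. Per kilobase of the longest transcript, Hnrnpa1 still led at 543 CPM, but Hnrnpa2b1 (444 CPM) and Hnrnpk (325 CPM) came before Hnrnpa0 (247 CPM). On that scale the lowest hnRNP was Hnrnpr (14.5 CPM, with Hnrnpll at 27.8 CPM) and the lowest U2 gene Sf3b5 (15.2 CPM, with Snrpa1 at 19 CPM).

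The Sm core ring carries 7 proteins in equal number in each snRNP, but the counts of its genes were unequal. Per kilobase of all exons, Snrpb was highest at 112 CPM and the other members except Snrpf lay between 33.1 and 55.2 CPM. Per kilobase of the longest transcript, Snrpb (129 CPM), Snrpd1 (129 CPM) and Snrpe (113 CPM) stood close together, and Snrpd3, Snrpd2 and Snrpg followed at 53.2 to 61.2 CPM. Snrpf had 9, 14, 13 and 8 counts, or 0.707 CPM per kilobase, and a log2 fold change of -0.14 (SE 0.56). In the GENCODE annotation, 85.4% of the exonic bases of Snrpf are shared with Ccdc38 and a long noncoding RNA on the opposite strand. Whether the counting used strand is not stated, and the part of this overlap in the low count was not tested.

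Between genotypes, none of the splicing factors passed a threshold. At a fold change of at least 2 with p of at most 0.05, the thresholds the study states, edgeR's quasi-likelihood test called 0 of the 54, and 0.811% of all genes tested. At a Benjamini-Hochberg adjusted p under 0.05 it called 0 members and 0% of all genes, and at an unadjusted p under 0.05 again 0 members, against 1.23% of all genes. DESeq2 also called 0 of the 54 on each count. The members' smallest adjusted p was 0.99998. Of the 54 members, 27 were estimated lower and 27 higher in cKO, with a median log2 fold change of -0.00089, against -0.01 over all genes tested. The estimates spanned -0.39 for Srsf12 to 0.39 for Sf3b5, with a median SE of 0.17. The 95% interval lay within a 2-fold change in both directions for 52 of 54 and within 1.5-fold for 35. The exceptions at 2-fold were Srsf1 and Snrpf.

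**Figure D2:**
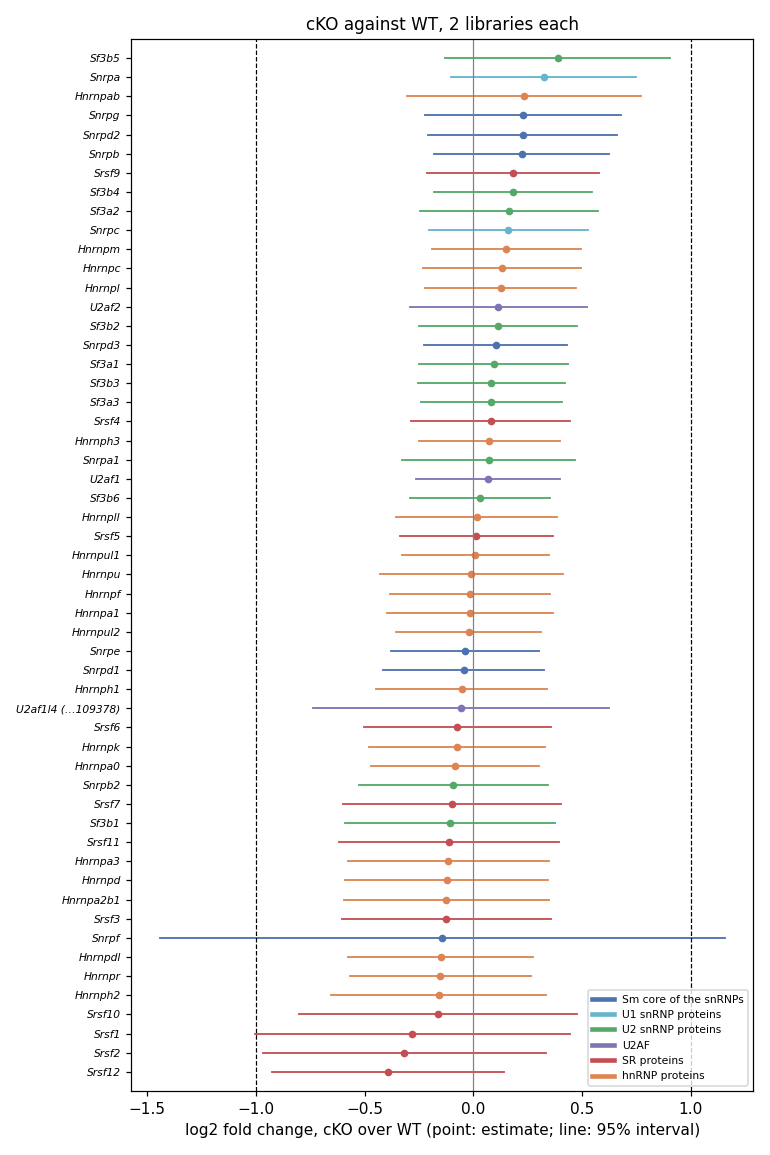
Log2 fold change of cKO over WT (2 libraries each) for the 54 factors tested, ordered by estimate, with 95% intervals as lines, a solid line at 0 and dashed lines at a 2-fold change. The intervals of all 54 cross 0, and those of Srsf1 and Snrpf alone reach beyond 2-fold.

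The groups did not overlap for a few factors, with cKO below WT in 2 members, against 11.2% of all genes, and above it in 9, against 10.4% of all genes. The 2 lower ones were Srsf12 and Hnrnpul2. The 9 higher ones were Hnrnph3, Sf3a3, Sf3b3, Snrpd3, Hnrnpl, Hnrnpm, Sf3b4, Snrpb and Snrpa. With TMM-normalized CPM these counts became 2 and 8, against 1750 and 1769 of 16145 genes. With size factors of the DESeq2 kind (RLE) they became 2 and 10, against 1699 and 1873 genes.

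The SR proteins held the 4 lowest estimates of the set. Srsf12, the least abundant SR gene here, had 206, 219, 177 and 150 counts, and its groups did not overlap. Its log2 fold change was -0.39 (SE 0.23), or 11.9 ± 0.109 CPM in WT against 9.0 ± 1.0 CPM in cKO (SD, n = 2). The gene lies at chr4:33208991-33233340 on the plus strand. Srsf2 (SC35, chr11:116849901-116853094, minus strand) had 3538, 2306, 2979 and 1805 counts. The WT 1 and cKO 1 libraries were high and the WT 2 and cKO 2 libraries low, so the groups overlapped, and the log2 fold change was -0.32 (SE 0.28). Srsf1 (SF2/ASF, chr11:88047373-88053755, plus strand), the founding SR protein, had 10695, 8212, 10675 and 5168 counts. WT 1 and cKO 1 were nearly equal and cKO 2 lowest, and the log2 fold change was -0.28 (SE 0.31). Srsf10, whose dephosphorylated form represses splicing after heat shock, had 3720, 3205, 4139 and 2153 counts and a log2 fold change of -0.16 (SE 0.28). Here the 2 cKO libraries were the highest and the lowest of all 4.

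Among SR proteins as a whole, 8 of 11 were estimated lower and 3 higher, with a median log2 fold change of -0.11. The paralogs Srsf3 and Srsf7 took a like course, with 9084, 7944, 9423 and 6435 counts for Srsf3 and 4965, 4326, 5342 and 3462 for Srsf7. Their log2 fold changes were -0.12 (SE 0.21) and -0.10 (SE 0.22). The paralogs Srsf4 and Srsf6 did not: Srsf6 had 9036, 8052, 9406 and 7053 counts, lowest in cKO 2, and Srsf4 had 821, 964, 942 and 960, lowest in WT 1. The log2 fold changes were -0.07 (SE 0.19) for Srsf6 and 0.08 (SE 0.16) for Srsf4. In GENCODE, 43.0% of the exonic bases of Srsf4 are shared with Gm12992 on the opposite strand, and the part of this overlap was not tested. Srsf9, with 1171, 1255, 1227 and 1551 counts, was the one SR gene estimated more than 0.1 higher, at 0.18 (SE 0.17). The 11 genes summed to 3156, 2520, 3068 and 2110 CPM, and both groups held a high and a low library.

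The estimates of the snRNP proteins lay mostly on the other side of 0. Of the 11 U2 snRNP genes, 9 were estimated higher in cKO, with a median log2 fold change of 0.08, as were both U1 genes and 4 of the 7 Sm genes. Sf3b5, the smallest SF3B subunit (chr10:13005343-13009183, plus strand), had 835, 987, 947 and 1450 counts. Only cKO 2 was above the WT range, and the log2 fold change was 0.39 (SE 0.22). Snrpa, the U1 protein that binds a stem loop of U1 snRNA (chr7:27187005-27196271, minus strand), had 2598, 2660, 2810 and 3824 counts. In CPM both cKO libraries lay above both WT libraries, cKO 1 by little, and the log2 fold change was 0.32 (SE 0.18). Its U2 paralog Snrpb2 was estimated lower, with 1598, 1308, 1558 and 1210 counts and a log2 fold change of -0.09 (SE 0.19). Snrpc, a U1 protein that steadies pairing with the 5′ splice site, had 1880, 2049, 2014 and 2418 counts and a log2 fold change of 0.16 (SE 0.16).

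In the Sm ring, Snrpg, Snrpd2 and Snrpb had almost the same estimate. Snrpg had 1051, 1083, 1055 and 1466 counts (log2 fold change 0.23, SE 0.19). Snrpd2 had 1398, 1468, 1421 and 1963 counts (0.23, SE 0.19), and Snrpb had 3519, 3805, 3765 and 4845 counts (0.22, SE 0.17). In each of the 3, the first 3 libraries were close and cKO 2 stood alone above them. Sf3b1, the SF3B subunit that clamps the branch point, had 7196, 7979, 8664 and 5605 counts, highest in cKO 1 and lowest in cKO 2, with a log2 fold change of -0.11 (SE 0.21). U2af1 had 1916, 1923, 1983 and 2083 counts (log2 fold change 0.07, SE 0.14), U2af2 had 7935, 8195, 7736 and 9881 (0.11, SE 0.18), and U2af1l4 under ENSMUSG00000109378 had 84, 91, 93 and 77 (-0.06, SE 0.29).

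Of the 20 hnRNPs, 13 were estimated lower and 7 higher, with a median log2 fold change of -0.02. The lowest were Hnrnph2, a G-tract binding protein encoded on the X chromosome, with 3054, 2326, 2844 and 2051 counts (log2 fold change -0.16, SE 0.21), and Hnrnpr with 5964, 5787, 6182 and 4527 (-0.15, SE 0.18). Its paralog Hnrnph1 had 18625, 18604, 20018 and 16278 counts and a log2 fold change of -0.05 (SE 0.17). In all 3, cKO 2 was the lowest library. With the GC-content offset, chosen after seeing the data, Hnrnph2 and Hnrnpr stood at -0.01 each. Hnrnpab had the highest estimate, 0.23 (SE 0.23), with 5669, 9138, 7659 and 9796 counts, and here WT 1 was the library apart. In GENCODE, 29.1% of the exonic bases of Hnrnpab are shared with Phykpl on the opposite strand, and the part of this overlap was not tested. Hnrnpa2b1 had 32251, 27989, 32376 and 23741 counts and a log2 fold change of -0.12 (SE 0.20), while its paralog Hnrnpa1 stood at -0.02 (SE 0.17). Hnrnpd, an AU-rich element binding protein, had 10368, 8851, 10448 and 7468 counts, and its paralog Hnrnpdl had 9999, 10612, 10922 and 7865. Their log2 fold changes were -0.12 (SE 0.20) and -0.15 (SE 0.18). The paralogs Hnrnpul1 and Hnrnpul2 varied little between libraries, with 5651, 6135, 5894 and 6075 counts and 6236, 6629, 6454 and 6344 counts. The log2 fold changes of the pair were 0.01 (SE 0.15) and -0.02 (SE 0.15), and although the CPM groups of Hnrnpul2 did not overlap, its 4 libraries lay within 1.03-fold.

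The widest differences were those with cKO 2. The median absolute log2 ratio between cKO 1 and cKO 2 was 0.34 over the 54 factors, against 0.09 between WT 1 and WT 2 and 0.07 between WT 1 and cKO 1. Across labels it was 0.28 between WT 1 and cKO 2, 0.21 between WT 2 and cKO 2 and 0.11 between WT 2 and cKO 1. Over all genes tested, these pairs in the same order gave 0.30, 0.18, 0.17, 0.26, 0.24 and 0.17. Of the 54 factors, 28 differed by more than 1.25-fold between cKO 1 and cKO 2 (51.9%, against 46.7% of all genes), and 7 did so between WT 1 and WT 2 (13%, against 29.8%). The cKO 2 library was the lowest of the 4 for 26 factors and the highest for 21, or 48.1% and 38.9%, against 35.1% and 31.5% of all genes.

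**Figure D3:**
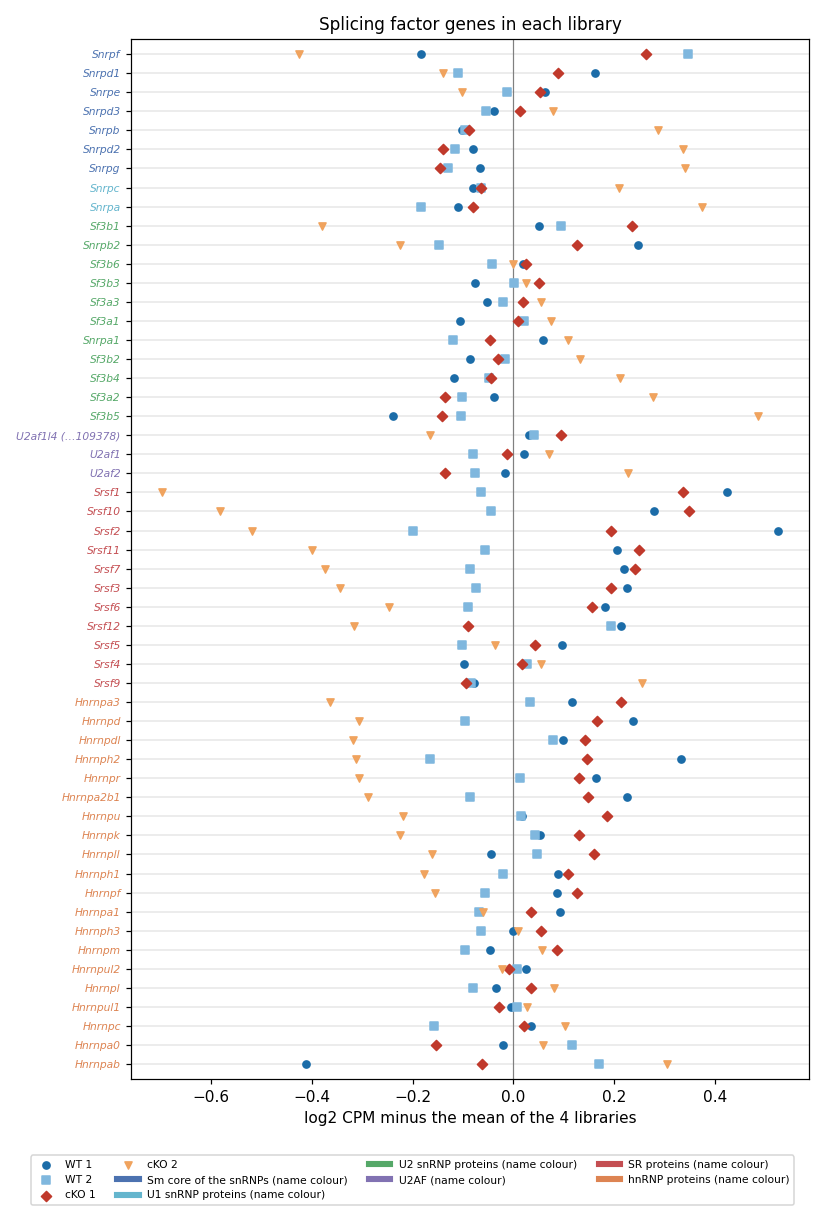
Log2 CPM of each of the 54 factors tested in each library, minus the mean of its 4 libraries, with names coloured by role and ordered within a role by the ratio of cKO 2 to cKO 1. The cKO 2 marker lies at one end of the row for 47 of the 54 genes, to the left in 8 of 11 SR proteins and to the right in 15 of 23 snRNP and U2AF genes.

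The direction of cKO 2 differed by role, and the roles also differed in GC content, as given below. Of the 11 SR genes, 9 were lower in cKO 2 than in cKO 1, with a median log2 ratio of -0.54. Of the 20 hnRNP genes 15 were lower, with a median of -0.28, against 8081 of 16130 genes at large, with a median of -0.0015. For the 2 U1 genes, both higher in cKO 2, the median was 0.37, and for the Sm and U2 genes it was 0.07 in each. Srsf1 in cKO 2 stood at 0.488 times its level in cKO 1 (95% exact binomial interval 0.472 to 0.505, counting error only), Srsf10 at 0.524 times (0.498 to 0.553) and Srsf2 at 0.611 times (0.576 to 0.648). On the other side, Sf3b5 stood at 1.54 times (1.42 to 1.68), Snrpg at 1.40 times (1.29 to 1.52) and Snrpa at 1.37 times (1.31 to 1.44). The SR genes were also lower in WT 2 than in WT 1, in 10 of 11 with a median log2 ratio of -0.27. Over all genes, 8774 of 16137 were lower in WT 2, with a median of -0.026. Srsf1 was there at 0.713 times (0.693 to 0.734), a smaller difference than within cKO. Srsf2 was at 0.605 times (0.574 to 0.638), a difference as wide as that within cKO. Snrpa, by contrast, was at 0.951 times (0.900 to 1.00). Over the 54 factors, the ratio of WT 2 to WT 1 and that of cKO 2 to cKO 1 had a Pearson r of 0.48, against 0.09 over 16123 genes with a count in every library, as a description across genes, which are not independent replicates.

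Base composition moved with these ratios. Over the 54 factors, the GC content of the longest annotated transcript and the log2 ratio of cKO 2 to cKO 1 had an r of 0.62 (Spearman's rho 0.67), against 0.53 over 16105 genes, a description of points that share the same libraries. For WT 2 over WT 1 the r was 0.33 over the factors and 0.10 over all genes. The median GC content of the factors was 45.5%, against 49.6% of the genes tested, and of the SR genes 42.8%. It was 43.9% for hnRNP, 46.4% for Sm, 48.6% for U1, 49.0% for U2 and 54.0% for U2AF genes. Over all genes tested, the median log2 ratio of cKO 2 to cKO 1 was -0.57 from 39 to 42% GC. From 42 to 45% GC it was -0.34. Of the 26 factors under 45% GC, 24 were lower in cKO 2 than in cKO 1, with a median log2 ratio of -0.38. Genes at large under 45% behaved much the same, with 3516 of 4164 (84.4%) lower and a median of -0.46. Of the 28 factors at or above 45%, 8 (28.6%) were lower, with a median of 0.07. Among genes at large at or above 45%, 4543 of 11934 (38.1%) were lower, with a median of 0.11. Srsf2, at 50% GC, lay far below other genes of its composition in both ratios, with log2 values of -0.71 and -0.72. In GENCODE, 25.3% of its exonic bases are shared with Mettl23 and Mfsd11 on the opposite strand. Whether the counting used strand is not stated, and the part of this overlap was not tested. The part of base composition in the library difference was not tested.

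**Figure D4:**
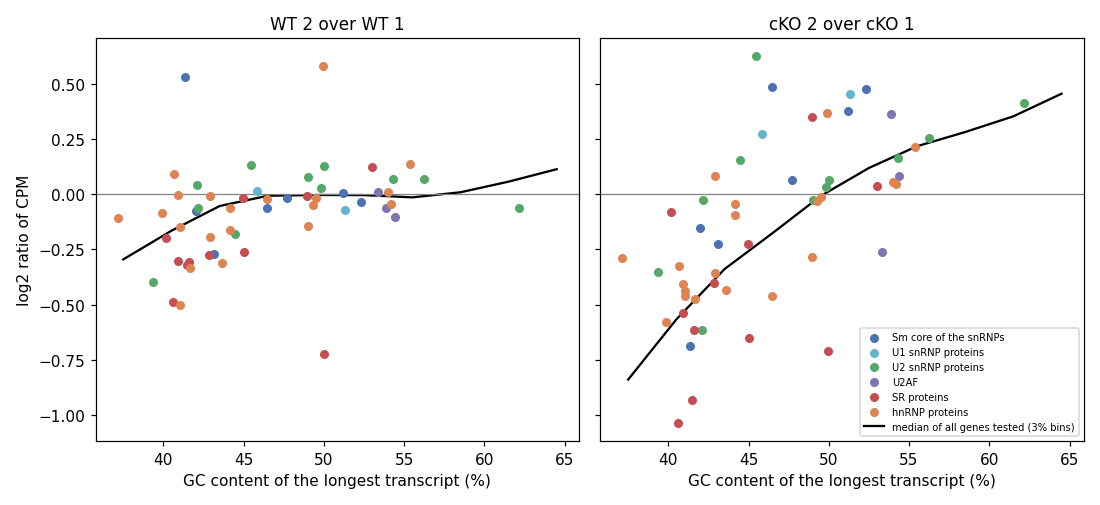
Log2 ratio of CPM of WT 2 over WT 1 (left) and of cKO 2 over cKO 1 (right) against the GC content (%) of the longest transcript for the 54 factors, coloured by role, with the median of all genes tested in 3% bins as a black line. On the right the factors and the line climb from low to high GC, and on the left the line stays close to 0 above 45% GC, with Srsf2 (-0.72) and Hnrnpab (0.58) far from it.

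The estimates turned on which cKO library was kept. With cKO 1 left out, 20 of the 54 factors reached an unadjusted p under 0.05, 10 lower (against 9.95% of all genes) and 10 higher (against 5.08%). At an adjusted p under 0.05 there were 0 (against 0.615% of all genes), and the smallest adjusted p of a factor was 0.0636. The 10 lower ones were Srsf1, Srsf2, Srsf3, Srsf7, Srsf10, Srsf11, Hnrnpa3, Hnrnpdl, Hnrnpr and Sf3b1, and Srsf1 then had a log2 fold change of -0.87 (SE 0.20). The 10 higher ones were Sf3b5, Snrpa, Snrpg, Snrpd2, Snrpb, Srsf9, Sf3b4, Sf3a2, Snrpc and U2af2, and Sf3b5 then had 0.68 (SE 0.13). With cKO 2 left out, 0 of 54 reached an unadjusted p under 0.05, against 2.67% of all genes, 44 were estimated higher in cKO, and Srsf1 turned to 0.15 and Srsf10 to 0.24. These fits leave 1 cKO library, whose spread is assumed to be that of the WT libraries.

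Transcript models of the factors were rich in forms that the counts per gene cannot separate. In GENCODE, 28 of the 55 genes (50.9%) have a transcript marked for nonsense-mediated decay, against 27.8% of 13719 protein-coding genes tested, and 9 of 11 SR genes have one. A retained intron transcript is annotated for 42 of 55 (76.4%), against 57.4%. The counts sum productive and unproductive transcripts, so a shift between them at a constant total is not visible here.

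The wider splicing machinery and the genes of nonsense-mediated decay, taken as 10 lists of 154 further genes, also gave no call. Of the 151 tested, 0 passed any of the 3 thresholds. Their estimates were less even than those of the factors, with 47 lower and 104 higher (68.9%, against 47.9% of all genes tested) and a median log2 fold change of 0.06. In CPM, cKO lay above WT without overlap in 28 (18.5%, against 10.4% of all genes), of which 10 were among the 16 tri-snRNP and 6 among the 22 Prp19 and catalytic genes, and below it in 1 (0.662%, against 11.2%). DESeq2 also called 0 at the fold threshold and at the adjusted p. Of the 16 tri-snRNP proteins 15 were estimated higher (median 0.14), the highest being Ppih with 520, 537, 575 and 729 counts (log2 fold change 0.29, SE 0.19). Of the 22 genes of the Prp19 complex and catalytic steps, 20 were estimated higher (median 0.09), led by Syf2 with 785, 809, 890 and 1110 counts (0.31, SE 0.18). Among 11 LSm proteins 9 were estimated higher, led by Lsm3 with 382, 385, 446 and 523 counts (0.32, SE 0.19). In these 3 genes cKO 2 was the highest library.

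In other lists the gene farthest from 0 was lowest in cKO 2, though most of these lists did not lean lower. Of the genes tested, 10 of 12 for snRNP assembly and 8 of 12 of the minor spliceosome were estimated higher. So were 10 of 18 other U1 and U2 genes, 11 of 21 other hnRNP-type genes, 7 of 15 SR-related genes and 3 of 10 SR protein kinase and import genes. The SR-related list also held Snrpn, a paralog of the Sm gene Snrpb and not an SR-related gene, which was estimated lower. Matr3, a nuclear matrix protein that represses exons, had 7587, 4851, 6315 and 2052 counts and a log2 fold change of -0.61 (SE 0.45). Prpf39, a U1-associated protein, had 919, 744, 889 and 383 counts (-0.41, SE 0.35). The minor spliceosome gene Rnpc3 had 412, 323, 401 and 203 counts (-0.31, SE 0.32). Wdr77, of the methylosome that prepares Sm proteins, had 844, 742, 853 and 501 counts (-0.25, SE 0.25). Tra2b, a regulator related to SR proteins, had 4544, 3608, 4284 and 2835 counts (-0.22, SE 0.22), and Clk1, which phosphorylates SR proteins, had 2352, 2051, 2362 and 1502 (-0.21, SE 0.22). These followed the same order as Srsf1, with cKO 2 lowest and WT 2 second lowest. Among 14 genes of nonsense-mediated decay, 11 were estimated higher, and Eif4a3, a core of the exon junction complex, had 2529, 2687, 2528 and 3391 counts (0.17, SE 0.18). With cKO 1 left out, Matr3 (-1.60), Prpf39 (-1.12) and Ptbp3 (-1.09) passed the fold threshold with p of at most 0.05, against 3.14% of all genes, and Matr3 alone had an adjusted p under 0.05, at 0.0485.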

How the data were processed

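Total RNA of the 4 libraries (2 ug each) was sequenced on Illumina instruments. The authors deposited whole-number read counts per gene. The submitters' processing notes name TopHat2 2.0.12, Bowtie2 2.2.3, HTSeq 0.6.0 and build mm9, but 97.3% of the deposited gene positions, and 52 of the 55 members', lie within 1 base of GENCODE M21 (GRCm38) at start or end, so positions are given as GRCm38. Poly(A) selection, strand setting and duplicate removal are not given in the sources used here. The table also holds fold changes and p-values of the authors' own comparison, which were not used, and a second table of WT 1 and cKO 1 was not used. The 11 rows without a gene identifier (0.0403% of 27304 rows) were left out.

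Samples were grouped by the genotype label. CPM is the count over the library total, with no pseudocount. Exon length is the union of exons, with the longest transcript as an alternative, and GC content that of the longest transcript. Counts of all genes passing filterByExpr were fitted in edgeR 4.0.16 (R 4.3.3, limma 3.58.1) with TMM factors, the quasi-likelihood test and Benjamini-Hochberg adjustment over all 16145 genes. The procedure was tested on simulated data. Alternatives were DESeq2 1.42.0, RLE and upper-quartile factors, other filters, a replicate block and leaving out each library, and, chosen after seeing the data, an offset for GC content.

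The members and gene lists were chosen with earlier results of these data known. Full values are given for the highest and lowest level per kilobase in each role, the 6 largest estimates in each direction, the members with p under 0.05, 8 pairs of paralogs and the gene farthest from 0 in each other list. The other members named (Srsf9, Snrpc, Sf3b1 and Hnrnpul2 among those without overlap) and Ptbp3 were chosen after their values were seen. Protein sequences were not analysed here. Intervals of single-library ratios are exact binomial and cover counting error only. Python 3.11.15 with scipy 1.17.1 was used.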

Additional observations from a re-analysis of the deposited data

How the results depend on the processing

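The 0 members at a 2-fold change with p of at most 0.05 and at an adjusted p under 0.05 remained 0 under every alternative run. RLE and upper-quartile factors, DESeq2 and the replicate block kept the direction of all 54 members. With no filter, 1 member (Sf3b5, higher) had an unadjusted p under 0.05, against 758 of 27293 genes. The GC offset, chosen after seeing the data, moved the members' median log2 fold change from -0.00089 to 0.074 (37 higher, 17 lower) and kept the direction of 42. Leaving out 1 library gave 0 to 10 members lower and 0 to 10 higher at an unadjusted p under 0.05. The 10 and 10 came without cKO 1, and 1 (Srsf2, lower) without WT 2. The median ran from -0.014 without cKO 1 to 0.066 without cKO 2, and the direction was kept for 23 of 54 without cKO 2 and 39 without WT 1. In the other lists, 0 to 3 genes passed the fold threshold and 0 to 1 the adjusted p, the 3 and 1 without cKO 1.

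Among the members with the 6 largest estimates in each direction, those that changed sign ran, over the 4 libraries left out in turn, from -0.70 to 0.074 for Srsf2, -0.39 to 0.10 for Hnrnph2, -0.038 to 0.58 for Hnrnpab, -0.87 to 0.15 for Srsf1, -0.68 to 0.24 for Srsf10, -0.37 to 0.053 for Hnrnpr, -0.035 to 0.46 for Snrpg and -0.031 to 0.46 for Snrpd2. Without cKO 2, Sf3b5 came to 0.040, Snrpa to 0.077 and Snrpb to 0.022, with no change of sign. The GC offset moved Srsf1 to -0.17, Srsf10 to -0.07 and Hnrnph2 and Hnrnpr to -0.01 each, with Srsf12 at -0.35 and Srsf2 at -0.33. On the higher side it gave 0.45 for Sf3b5, 0.30 for Snrpa, 0.27 for Snrpg, 0.22 for Hnrnpab, 0.20 for Snrpb and 0.19 for Snrpd2. The length used for levels per kilobase changed the order within roles. Beyond the loss of a library, the cause was not tested.

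Same-numbered libraries share a number, and whether they also share a litter or a batch is not stated. Their deviations correlated at 0.108 across genes, over 2 pairs. With the replicate block the members' median was -0.0035, and 0 members were called. Over all genes, 131 passed the fold threshold in the fit without the block, against 208 with the replicate block, 405 with no filter, 72 with at least 10 counts in every library and 65 with DESeq2. Leaving out a library gave 104 to 531, the highest without cKO 1 and WT 2 (476). At an unadjusted p under 0.05, 199 became 535 with the block, 758 with no filter, 127 with DESeq2, 312 with the GC offset, and 126 without WT 1, 649 without WT 2, 2542 without cKO 1 and 454 without cKO 2. At an adjusted p under 0.05, 0 became 5 with the block, 65 with no filter, 7 without WT 1, 116 without WT 2 and 104 without cKO 1. With 2 libraries a group, the median SE of 0.17 limits what can be seen among the factors, whereas their counts, mostly above 1000, do not.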

Other observations

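Snrpn, the imprinted paralog of Snrpb that the symbol rule left out, had, in the same order of libraries, 739, 818, 665 and 805 counts and a log2 fold change of -0.10 (SE 0.18). The processed pseudogene Snrpert had 91, 83, 92 and 30 counts, lowest in cKO 2, with a log2 fold change of -0.54 (SE 0.49).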
